A study of Lates calcarifer with 24 samples.

Results

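Liver transcripts of Asian seabass whose array signal was lower in every fish fed a pelleted feed than in every fish fed baitfish are described here. Members were chosen by the deposited processed values. A probe is a member when its highest value on the 20 arrays of Groups B to F was below its lowest value on the 4 arrays of Group A, and when its signal was well above background on all 4 arrays of Group A. The 15 probes paired with a gene symbol, which were also measured by qPCR, were left out. Of the 60080 probes besides controls, 9142 met the condition on background, and 32 of these are members, or 0.350% of the 9142. The contrast between pellet-fed and control fish was thus used to find the members, and it is given below as a description, with no test.

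Groups B, C, D, E and F were each fed a different commercial pelleted feed, Feeds B to F. Group A, the control, was fed frozen baitfish, Feed A. All fish were juveniles of a single pairwise cross of brooders selected for increased growth rate. According to the methods, they were reared on commercial compound feeds between weaning and the trial. Baitfish was thus a change from such feeds for Group A. Feeding in the trial lasted 61 days, between 107 and 168 days post-hatch (dph). Liver was then taken, and the labels give 4 fish and 4 biological samples per group, so an array is read here as 1 fish. The methods speak of RNA from a larger number of individuals per feed, and no source used here speaks of pooled liver RNA. According to the study's methods, Group F was given a smaller ration because the fish did not accept more, and Feed E came in only a single pellet size. For these reasons the study left Groups E and F out of its further analysis, whereas both are used here. The baitfish ration was larger by weight than that of the pellets, to even out the energy intake. The labels do not say which canvas or tank a fish came from, and the part of these in the results was not tested.

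The liver is the organ that first receives absorbed nutrients from the gut. In fish, as in other vertebrates, it takes up amino acids, sugars and fatty acids, makes and breaks down lipids, and secretes most of the proteins of the blood plasma. It also stores energy as glycogen and fat, and many of its transcripts move with the composition and amount of the diet. By the study's measurements, baitfish differed from the pelleted Feeds B to D in water content and in fatty acids. The study had no information on the ingredients of the pelleted feeds beyond their packaging labels.

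The probes carry design numbers, and each is paired with a single transcript number of the array's design. None of the 32 members is paired with a gene symbol in the sources used here, and 0 of these transcript numbers are in the reference gene table, so neither genes nor roles can be named. Every design number ends in _PI428621111, and this ending is left out below. A different probe has a different brightness for the same amount of RNA, so levels were compared between groups and never between probes. As a check of the tissue, the probe of serpina1, which codes for a plasma protease inhibitor made by the liver, was well above background on 24 of 24 arrays, with a log2 signal between 16.79 and 18.51.

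The 24 arrays lie on 3 slides, and each slide holds arrays of all 6 groups. The share of spots well above background was 20.4% to 28.1% on slide 1, 23.9% to 36.0% on slide 2 and 26.2% to 32.9% on slide 3. The 75th percentile was also taken of the processed intensity in each array's scanner output, before quantile normalization. It was 19.9 to 29.1 on slide 1, 37.5 to 51.1 on slide 2 and 39.3 to 69.7 on slide 3. Slide 1 was thus dimmer on this measure. The processed columns labelled Group F replicates 2, 3 and 4 hold the values of the scanner output labelled replicates 4, 2 and 3 of the same group, in the same rank order of probes. Membership is not affected by an exchange within a group. Values per array are therefore given as log2 signal, that is, the quantile-normalized log2 intensity from each array's own scanner output, while the gap that defines a member is given on the processed values. Whether the arrays labelled C to F carry the feeds of the same name was not tested here. Membership does not depend on it, since the rule pools all 5 pellets. The differences among pellet-fed groups given below are by label, so the feed each belongs to does depend on it.

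The gap between the lowest array of Group A and the highest pellet-fed array ran between 0.004 and 0.784 log2 over the 32 members. The log2 signal kept the same separation in 29 of them, while in CUST_20005, CUST_20921 and CUST_1878 the edges met or crossed by at most 0.056. Among the 27 members that were well above background on all 24 arrays, the mean of the 5 pellet-fed groups was lower than that of Group A by 1.32-fold to 6.27-fold, with a median of 1.96-fold. A 2-fold lower mean was reached by 13 of the 27 and a 4-fold lower mean by 2. Over these 27 members, the median difference was -1.04 log2 in Group B, -0.93 in Group C, -1.36 in Group D, -0.81 in Group E and -0.95 in Group F, each less Group A. Over the 7951 probes well above background on all 24 arrays, the same medians lay between -0.03 and 0.04. In liver as a whole, fewer cells of a type and less RNA per cell cannot be told apart. For comparison, the mirror rule, with every pellet-fed array above every array of Group A, was met by 57 of the 9142 probes, or 0.623%.

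**Figure D1:**
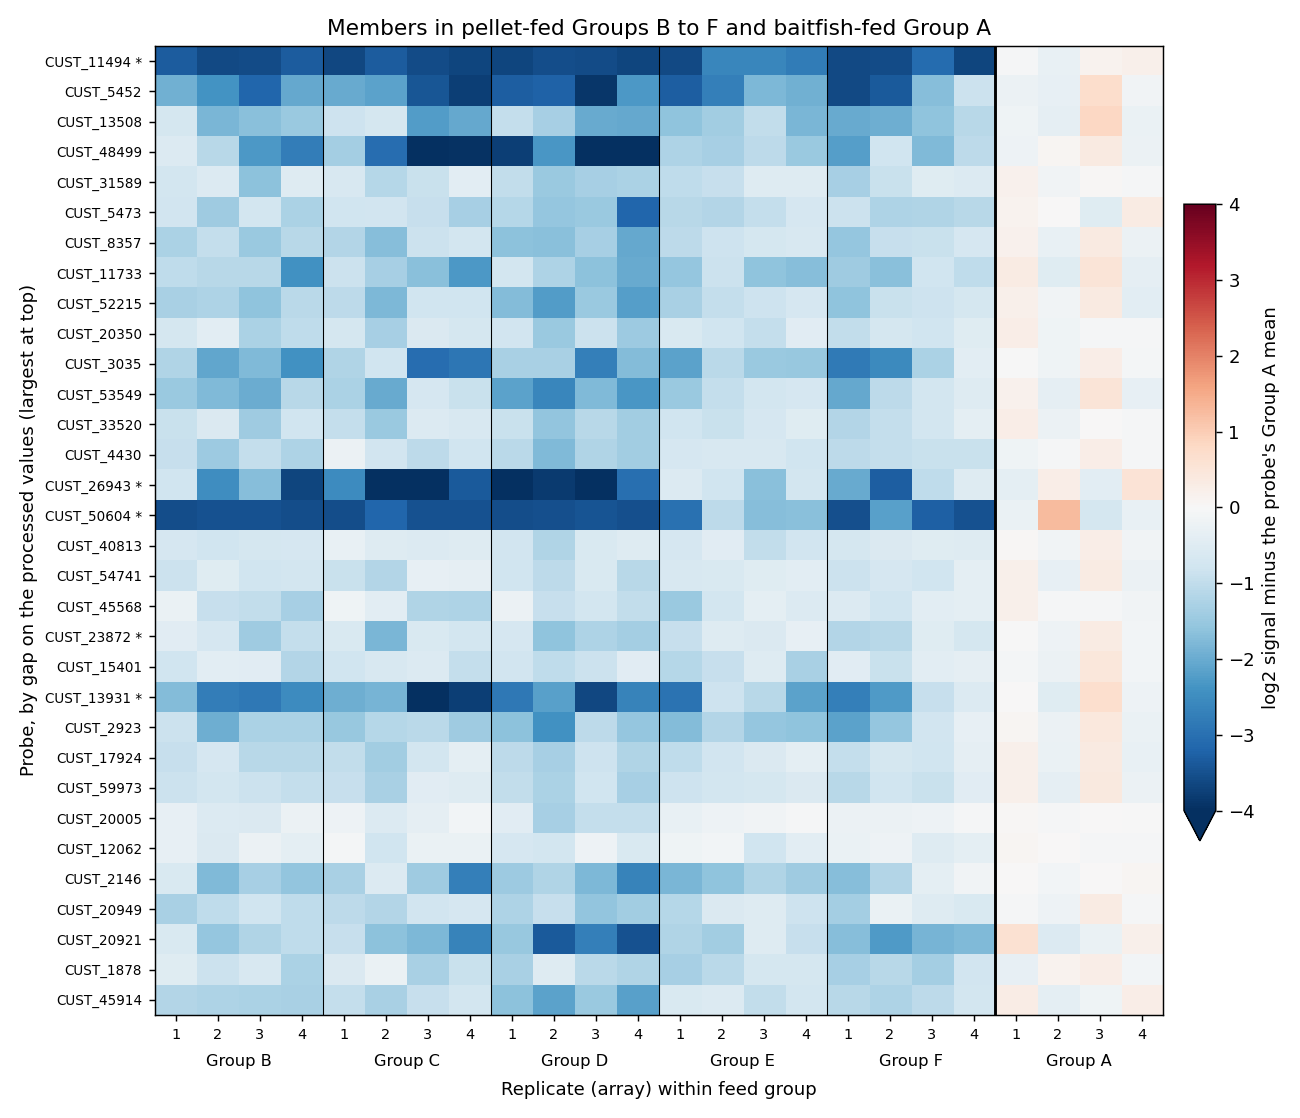
Log2 signal of the 32 members (rows, ordered by the gap on the processed values) on the 20 arrays of pellet-fed Groups B to F and the 4 arrays of Group A (columns), each less the probe's mean in Group A; values under -4 have the darkest colour, and a star marks the 5 members not well above background on some pellet-fed array. Every value of a pellet-fed array is below 0, with the deepest blue by row mean in CUST_11494, CUST_50604, CUST_5452, CUST_26943, CUST_48499 and CUST_13931. Group D has the lowest mean of the pellet-fed groups in 21 of the 27 rows without a star.

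CUST_11494 had the largest gap, 0.784 on the processed values. Its log2 signal was 3.12, 2.84, 2.90 and 3.15 in Group B, 2.82, 3.13, 2.89 and 2.80 in Group C, 2.80, 2.93, 2.87 and 2.79 in Group D, 2.85, 3.84, 3.84 and 3.66 in Group E, and 2.84, 2.87, 3.38 and 2.79 in Group F, against 6.40, 6.17, 6.61 and 6.67 in Group A. The probe was well above background on all 4 arrays of Group A and on 0 of the 20 pellet-fed arrays, so the pellet-fed values are only a bound. Set against the dimmest probe that passed the background limit on the same array, its level was at least 2.53-fold lower in Group B, 3.00-fold in Group C, 3.05-fold in Group D, 2.97-fold in Group E and 2.94-fold in Group F than in Group A. The bounds differ among pellets through the arrays' detection limits and give no order of the groups.

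A further 4 members were well above background on some but not all pellet-fed arrays, and they are named here after their values were seen. CUST_26943 was detected on 2 arrays of Group B, 0 of C, 0 of D, 4 of E and 2 of F, and its signal was at least 6.03-fold lower in Group C and 6.13-fold lower in Group D than in Group A. CUST_50604 was detected on 2 of the 20 pellet-fed arrays, both of Group E, and was at least 2.43-fold lower in Group B, 2.89-fold in C, 2.93-fold in D and 2.82-fold in F than in Group A. CUST_13931 was detected on 10 of the 20 pellet-fed arrays and CUST_23872 on 14. Group E was thus the pellet-fed group in which CUST_26943 was seen on every array, while the same probe was below the limit on all arrays of Groups C and D.

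CUST_5452 had the second largest gap (0.529) and, among the members detected on all arrays, the largest fold between Group A and the mean of the 5 pellet-fed groups. Its log2 signal was 8.24, 7.79, 7.01 and 8.12 in Group B, 8.17, 8.04, 6.74 and 6.41 in Group C, 6.86, 6.93, 6.28 and 7.87 in Group D, 6.86, 7.43, 8.38 and 8.24 in Group E, and 6.57, 6.81, 8.46 and 9.32 in Group F, against 9.93, 9.85, 10.89 and 10.02 in Group A. The group means were 7.79 ± 0.56, 7.34 ± 0.90, 6.98 ± 0.66, 7.73 ± 0.72 and 7.79 ± 1.32 in Groups B to F, against 10.17 ± 0.48 in Group A (SD, n = 4 each). The pellet-fed groups overlapped one another widely, and their mean was 6.27-fold lower than that of Group A.

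CUST_3035, whose transcript number in the array's design (10377) directly precedes that of CUST_5452 (10378), was also a member. Its log2 signal was 14.99, 14.12, 14.42 and 13.76 in Group B, 14.97, 15.38, 13.15 and 13.28 in Group C, 14.89, 14.90, 13.46 and 14.46 in Group D, 14.04, 15.11, 14.69 and 14.66 in Group E, and 13.36, 13.63, 14.92 and 15.75 in Group F, against 16.18, 16.02, 16.44 and 16.10 in Group A. On average it was 3.45-fold lower in the pellet-fed groups than in Group A. After each group's mean was subtracted, CUST_3035 and CUST_5452 varied together among fish with a Pearson correlation of 0.77 over the 24 arrays. The points share arrays and slides, and whether the 2 probes read the same transcript is not given in the sources used here.

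CUST_48499 showed the widest spread among the pellets of the members detected on all arrays. Its log2 signal was 11.46, 10.90, 9.72 and 9.24 in Group B, 10.66, 8.96, 7.28 and 8.07 in Group C, 8.23, 9.69, 5.96 and 5.84 in Group D, 10.77, 10.68, 10.95 and 10.52 in Group E, and 9.82, 11.21, 10.25 and 10.97 in Group F, against 11.80, 12.08, 12.38 and 11.78 in Group A. The difference from Group A was -1.68 log2 in Group B, -3.27 in Group C, -4.58 in Group D, -1.28 in Group E and -1.45 in Group F. Groups B, C and D also had the larger spread among fish, with SDs of 1.03, 1.45 and 1.86, while those of Groups E and F were 0.18 and 0.64, and that of Group A was 0.29. All arrays of Groups E and F lay above all 4 arrays of Group D, whereas Groups B and C overlapped both with each other and with Group D.

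CUST_13508 had a gap of 0.338, and its pellet-fed groups lay close together, with means between 10.84 in Group F and 11.09 in Group B, against 12.52 ± 0.55 in Group A. Its 20 pellet-fed arrays ran between 10.28 and 11.82, and the 4 arrays of Group A between 12.14 and 13.33. CUST_11733 was similar, with means of 7.17 to 7.49 in the pellet-fed groups and 8.71 ± 0.51 in Group A. In neither of the 2 did any pellet-fed group pass the test against the other 4 that is described below.

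CUST_5473 ran between 8.81 and 11.32 on the pellet-fed arrays and between 11.52 and 12.31 in Group A, and its lowest value was Group D replicate 4. CUST_8357 ran between 7.54 and 8.96 on the pellet-fed arrays and between 9.31 and 9.96 in Group A. CUST_31589 ran between 7.16 and 8.39 on the pellet-fed arrays and between 8.66 and 8.97 in Group A. In all 3 of these members Group D had the lowest mean, although its arrays overlapped those of at least 1 other pellet-fed group.

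**Figure D2:**
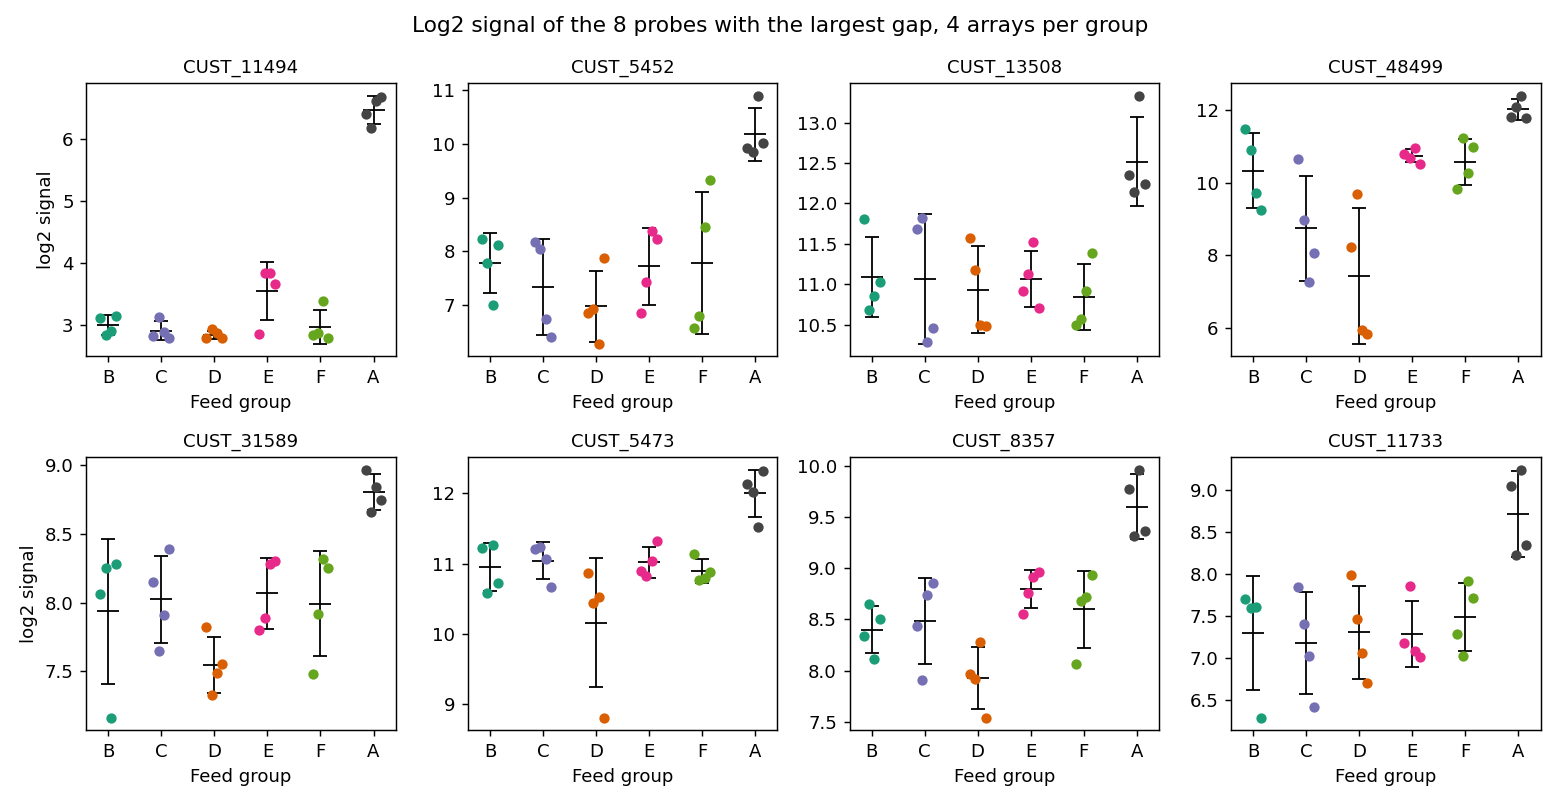
Log2 signal (vertical axis, a scale of its own for each panel) of the 8 members with the largest gap in Groups B to F and Group A (horizontal axis); points are the 4 arrays of a group, and the bar and whiskers are their mean ± SD. Every pellet-fed point lies below every point of Group A in each panel, by 2.33 log2 signal for CUST_11494 and by 0.20 for CUST_5473, and CUST_11494 is not well above background on any pellet-fed array.

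CUST_53549 and CUST_20921 completed the 6 members with the largest difference from Group A among those detected on all arrays. CUST_53549 averaged 7.60, 7.97, 6.97, 8.21 and 8.10 in Groups B to F, against 9.18 ± 0.42 in Group A. CUST_20921 averaged 7.45, 6.78, 5.77, 7.53 and 6.64 in Groups B to F, against 8.54 ± 0.51 in Group A. In the second of these the pellet-fed fish were far apart, with a mean difference from Group A of -1.01 log2 in Group E and -2.77 in Group D, and its highest pellet-fed array (8.01) was level with the lowest array of Group A (8.00).

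At the small end the differences were slight. CUST_12062, named after its values were seen, averaged 14.41, 14.43, 14.23, 14.41 and 14.44 in Groups B to F, against 14.79 ± 0.05 in Group A, a mean 1.32-fold lower. Its 4 arrays of Group A ran between 14.74 and 14.85, while the pellet-fed arrays ran between 13.98 and 14.71. A member can therefore separate the groups completely and still differ by little, because the 4 control arrays were close together.

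The members just inside the limit on the processed values were CUST_20921 and CUST_1878, each with a gap of 0.006, and CUST_45914 with 0.004. Just outside it were CUST_9244, in which the values met (a gap of 0), and CUST_8076 and CUST_59512, each with a gap of -0.003. The array of Group A nearest to the pellet-fed arrays was replicate 2 in 21 of the 32 members on the log2 signal, replicate 4 in 6, replicate 3 in 3 and replicate 1 in 2. Without Group A replicate 2, the rule on the processed values would have been met by 117 probes, and without Group A replicate 1, 3 or 4 by 51, 59 or 56. On the pellet-fed side, the nearest array was of Group F in 11 members, of Group C in 9, of Group E in 9, of Group B in 2 and of Group D in 1. Group F replicate 4 alone was the nearest in 10 members, and leaving out its processed values, which stand in the column labelled replicate 2, gave 50 probes. The list is thus set to a large part by 1 control array and 1 array of Group F.

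The second question was whether the 5 pellets differ from one another in these transcripts. The rule treats Groups B to F alike, so differences among them were tested, with limma on the 20 pellet-fed arrays and the Benjamini-Hochberg adjustment over all 60080 probes. The F-test across Groups B to F called 0 of the 32 members at an adjusted p below 0.05, and it called 18 of all probes, or 0.0300%. At an unadjusted p below 0.05 it had 8 of the 27 members detected on all arrays, against 13.3% of the 7951 probes detected so. The lowest adjusted p among the members was 0.0718, for CUST_45914.

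Among the 27 members detected on all arrays, Group D was the lowest of the pellet-fed groups in most. It had the lowest mean in 21 of 27, where it had the lowest mean in 21.2% of the 7951 probes, and it had the highest mean in 0. Its mean was below that of the other 4 groups in 25 of 27, with a median difference of -0.40 log2, against 0.01 over the 7951 probes. The share of those probes with Group D below was not taken. Group E had the highest mean in 15 of the 27 and Group F in 7, where these groups had the highest mean in 20.4% and 21.0% of the 7951 probes. By the array medians given below, however, Groups E and F were not the highest on slide 1. The other 5 members have no measured order of the groups, since some of their pellet-fed values are only bounds. Members vary together among fish, as described below, so these counts are not 27 separate observations. The cap of the rule on high pellet-fed values can also tilt these counts, and the 7951 probes carry no such cap.

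Each pellet-fed group was then set against the mean of the other 4. Group D was significantly lower in 2 of the 32 members, CUST_45914 and CUST_20005. The same call was made for 0.0599% of all probes (0.115% in either direction). All probes include many not well above background, whereas the members are well above it on all arrays of Group A. The 2 shares are thus not over like sets, and the share of such calls over the 7951 probes was not taken. No member passed the test in Group B, C, E or F, which called 0.00499%, 0%, 0.00499% and 0.00999% of all probes. At an unadjusted p below 0.05, Group D was lower in 13 and higher in 0 of the 27 members detected on all arrays, against 5.85% of the 7951 probes lower. The share of those probes higher was not taken. The rule disfavours members with a high group, and the 7951 probes were not chosen so. The difference of Group D missed the adjusted threshold in the other 30 members, which does not show that the pellets act alike in them.

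CUST_45914 was the only member in which all 4 arrays of Group D lay below the other 16 pellet-fed arrays, an arrangement met by 0.440% of the 7951 probes. Its log2 signal was 12.13, 12.06, 12.03 and 12.01 in Group B, 12.35, 12.01, 12.38 and 12.56 in Group C, 11.65, 11.15, 11.80 and 11.13 in Group D, 12.70, 12.74, 12.33 and 12.55 in Group E, and 12.18, 12.07, 12.25 and 12.55 in Group F, against 13.60, 12.92, 13.13 and 13.55 in Group A. Group D was lower than the other 4 pellet-fed groups by -0.88 log2 (SE 0.13, adjusted p = 0.0116 in limma). The difference was -0.68 within slide 1, -0.79 within slide 2 and -1.22 within slide 3. Without Group D replicate 2 or 4 the call was lost, at a difference of -0.78 each (adjusted p = 0.0859 and 0.0565 in limma). It was also lost with scaling to the 75th percentile (difference -0.95, adjusted p = 0.151 in limma), where the other settings gave adjusted p as low as 0.00676.

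CUST_20005 was the second member with a call in Group D. Its log2 signal was 17.99, 17.75, 17.73 and 18.09 in Group B, 18.12, 17.78, 17.96 and 18.20 in Group C, 17.85, 16.99, 17.36 and 17.35 in Group D, 18.02, 18.10, 18.18 and 18.26 in Group E, and 18.08, 18.09, 18.12 and 18.25 in Group F, against 18.36, 18.26, 18.34 and 18.29 in Group A. Replicates 2, 3 and 4 of Group D lay below all other pellet-fed arrays, while replicate 1 lay within their range. The difference of Group D from the other 4 was -0.66 log2 (SE 0.12, adjusted p = 0.0359 in limma), and -0.18, -0.77 and -0.82 within slides 1, 2 and 3. The call was lost in 15 of the 20 fits that left out 1 array, with an adjusted p of up to 0.185 in limma, and was kept without replicate 2 or 3 of Group B, replicate 2 of Group C, replicate 1 of Group D or replicate 1 of Group E. It was also lost with scaling to the 75th percentile (difference -0.74, adjusted p = 0.508 in limma), where the other settings gave adjusted p as low as 0.0151. None of the 32 members was saturated on any array.

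**Figure D3:**
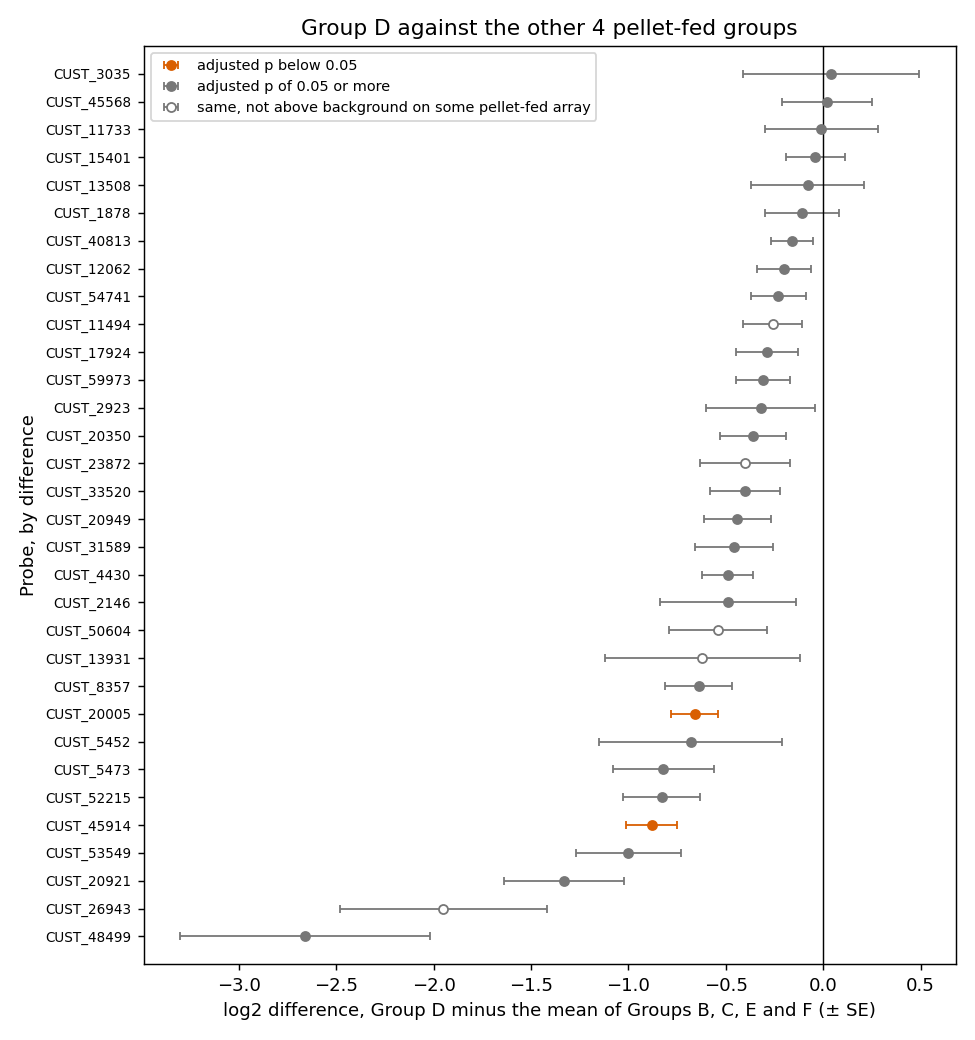
Difference in log2 signal between Group D and the mean of Groups B, C, E and F (horizontal axis, points with SE from limma) for the 32 members, ordered by the difference; orange points have an adjusted p below 0.05, and open points are the 5 members not well above background on some pellet-fed array, whose differences are fitted and not measured. The difference is below 0 in 25 of the 27 members detected on all arrays and reaches -2.66 in CUST_48499, while the 2 called members, CUST_45914 and CUST_20005, have small standard errors.

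The largest differences of Group D among the members were not those called. In CUST_48499 Group D was lower than the other 4 by -2.66 log2 (SE 0.64, adjusted p = 0.182 in limma), and in CUST_20921 by -1.33 (SE 0.31, adjusted p = 0.175 in limma). When dim probes were left out of the fit, both passed, with adjusted p of 0.044 and 0.0472 in limma, where the other settings gave adjusted p of up to 0.256 and 0.288. CUST_20921 also passed without Group D replicate 1 (adjusted p = 0.0243 in limma). CUST_53549 did not pass the test either (adjusted p = 0.27 in limma), nor did CUST_52215, named after its values were seen, at a difference of -0.83 (SE 0.20, adjusted p = 0.176 in limma).

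The median level of the 27 members detected on all arrays summarises the group differences. Less the Group A mean, it lay between -1.20 and -0.85 in Group B, between -1.16 and -0.81 in Group C, between -1.45 and -1.07 in Group D, between -1.13 and -0.70 in Group E and between -1.32 and -0.52 in Group F, against -0.22 to 0.26 on the arrays of Group A. Each pellet-fed group overlapped at least 1 other on this measure. Group F had the widest range, with replicate 1, on slide 1, the lowest and replicate 4, on slide 3, the highest. On slide 1 the median was -1.32 in Group F replicate 1 and -1.13 in Group E replicate 1, below -1.07 in Group D replicate 1. On slides 2 and 3 every array of Group D lay below those of Groups E and F. Groups E and F have 2 arrays each on slide 3, and the part of the slide in their order was not tested.

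On the processed values the rule fixes that the pellet-fed arrays lie below those of Group A on every slide, and only the size was left to vary. Over the 27 members the median of the pellet-fed mean less that of Group A was -1.03 log2 on slide 1 (6 pellet-fed arrays and 2 of Group A), -1.28 on slide 2 (7 and 1) and -0.74 on slide 3 (7 and 1). The same medians over the 7951 probes were -0.04, 0.18 and -0.02. Group D was below the mean of the other 4 pellet-fed groups in 20 of the 27 members on slide 1. The count was 25 on slide 2 and 24 on slide 3, and the matching shares of the 7951 probes were not taken. The median differences were -0.09, -0.28 and -0.65 log2 on slides 1, 2 and 3, against 0.08, -0.05 and -0.01 over the 7951 probes. The difference of Group D was thus smallest on the dimmer slide 1, where Group D has 1 array, and the part of the slide in it was not tested.

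**Figure D4:**
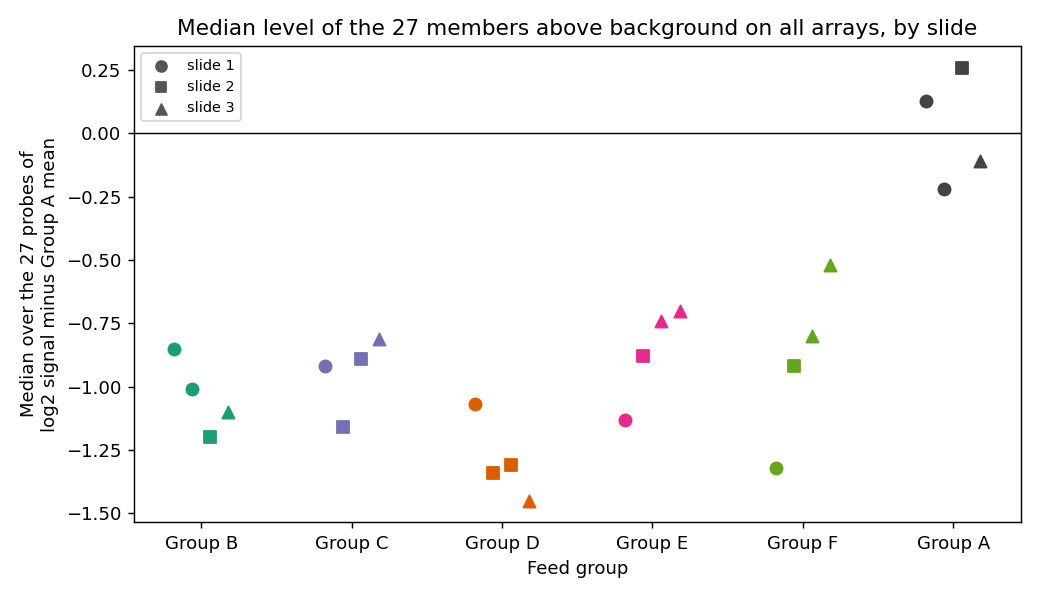
Median over the 27 members detected on all arrays of the log2 signal less each probe's Group A mean (vertical axis) on every array of Groups B to F and Group A (horizontal axis), with the slide shown by the symbol. All 20 pellet-fed arrays lie at -0.52 or lower, and the 4 arrays of Group A lie between -0.22 and 0.26.

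The spread among fish of a group was of the same order in these transcripts as in others. The median SD within a group was 0.36, 0.42, 0.35, 0.26 and 0.32 log2 over the members in Groups B to F, against 0.38, 0.39, 0.38, 0.35 and 0.47 over the 9136 of the 9142 probes that have a value on every array. In Group A it was 0.31 for the members and 0.51 for the 9136 probes. A small spread in Group A is favoured by the rule, which also limits the highest values of Groups B to F. The medians over the members also take in those whose pellet-fed values are partly only bounds. Repeat spots are found in CUST_2923, the only member with repeat spots, named after its values were seen. The SD of the log2 signal among its 6 spots had a median of 0.07 over the 24 arrays (0.05 to 0.16), while the SD among fish ran between 0.21 in Group C and 0.81 in Group F. Repeat spots share the RNA, the labelling and the hybridisation, so their SD leaves these errors out.

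Some members varied together among fish. After the group means were subtracted, the median Pearson correlation over the 496 pairs of members was 0.16 over 24 arrays, against 0.02 over pairs of the 9136 probes, and 19.8% of the pairs of members were above 0.5, against 7.92%. With the slide also subtracted, the medians were 0.19 and 0.03, and 22.2% and 6.69% of the pairs were above 0.5. The highest correlations were found in a small set of members, which are named after their values were seen. CUST_54741 and CUST_59973 had a correlation of 0.97, and CUST_17924 one of 0.92 with each of them. CUST_52215 had a correlation of 0.94 with CUST_53549 and of 0.93 with CUST_8357, and CUST_8357 had one of 0.88 with CUST_53549. CUST_8357 was also close to the first set, with 0.89 for each of CUST_54741 and CUST_59973. CUST_3035 had a correlation of 0.90 with CUST_13931, which is not detected on all arrays, and CUST_20350 had one of 0.87 with CUST_33520. The points share arrays, slides and the normalization, and the correlations are given as a description.

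The 3 members around CUST_54741 were alike in size as well. CUST_54741 was lower than in Group A by -0.73, -0.69, -0.89, -0.55 and -0.68 log2 in Groups B to F. CUST_59973 was lower by -0.85, -0.79, -1.10, -0.71 and -0.81 and CUST_17924 by -0.95, -0.88, -1.09, -0.70 and -0.70. All 3 had their lowest mean in Group D and their highest pellet-fed mean in Group E, and the F-test across Groups B to F gave an adjusted p of 1 for each in limma.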

How the data were processed

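Liver RNA of 24 samples was hybridised to 24 one-colour Agilent arrays. The authors deposited a table of log2 processed values, made in Partek by quantile normalization per the methods, and the scanner output of each array (Feature Extraction 10.7.1.1 per the file headers), with the spot intensity, the background and flags of other kinds, which are yes or no values. The processed values fixed the members, and 0 columns were left unmatched. The number of arrays limits the precision.

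Processed intensities of the 24 arrays were quantile-normalized and log2-transformed. The 558 spots marked as outliers were left out, repeat spots were averaged, and 48 probes had a missing value. A probe counts as well above background when more than 50% of its spots are. Groups B to F were compared with limma 3.58.1 (R 4.3.3) on 20 arrays, with group as the only factor. The p was adjusted by Benjamini-Hochberg over all probes. The methods used a multi-way ANOVA whose factors they do not name, so the models are not alike. The prior had 1.24 degrees of freedom. The fit was tested on simulated data. Bounds on folds set the mean of Group A against, per array, the higher of the lowest signal well above background and the probe's own signal. The package data.table (1.17.8) read the tables and matplotlib (3.10.9) drew the figures.

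The members and the rule for named probes were chosen with earlier results of these data known. Named are the 8 largest gaps, members called among the pellets, the 6 largest differences from Group A among members detected on all arrays, members detected on no pellet-fed array, and those nearest to the limit. A cell type list could not be used, since the members carry no symbols. Of the 15 qPCR probes, 0 met the separation. Alternatives were scaling to the 75th percentile, normexp with an offset of 50, the processed values, outlier spots kept, a filter of dim probes, all 24 arrays in the fit, a block for slide or for replicate number, no moderation of variances, and 1 array left out at a time.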

Additional observations from a re-analysis of the deposited data

Results flagged for a closer look

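In 3 of the 84 sets of 4 arrays formed by the named members and the 6 groups, 1 array stood apart from the other 3, where chance gives about 5% of such sets. CUST_11494 had a log2 signal of 3.38 in Group F replicate 3, against 2.79 to 2.87 on the other arrays of Group F, all of them not well above background. CUST_5452 had 10.89 in Group A replicate 3, against 9.85 to 10.02 on the other control arrays. CUST_11733 had 6.29 in Group B replicate 4, against 7.60 to 7.70 on the other arrays of Group B.

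Group D passed the test against the other 4 pellet-fed groups in 2 members (limma), although the F-test across Groups B to F called neither and both calls were lost in some fits without 1 array. The difference was -0.88 log2 in CUST_45914 and -0.66 in CUST_20005.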

How the results depend on the processing

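The rule gave 49 probes once a slide term was removed from the processed values, of which 27 were members, and 31 to 45 under the other scalings and detection limits. The 31 probes under scaling to the 75th percentile held only 26 of the 32 members. The 31 under normexp held 29, as did the 32 on the log2 signal. Leaving out 1 array gave 32 to 117 probes. Under this rule a left-out array can add probes but can drop no member, so the lower end was fixed in advance. The median fitted level of the 32 members less Group A was -1.16 log2 in the main analysis. Without 1 array it ran between -1.21 and -1.08. It was -1.15 with scaling to the 75th percentile, -0.99 with normexp and -1.03 on the processed values. With a block for slide it was -1.15 and for replicate number -1.16. Within slides 1, 2 and 3 it was -1.06, -1.33 and -0.90. The plain mean of all pellet-fed arrays on slide 3 less Group A gave a median of -0.84 instead. Group D called 2 members in the main analysis, 0 with scaling to the 75th percentile and 4 with the filter of dim probes, and 0 to 3 without 1 array. The F-test called 1 member with that filter and 0 to 1 without 1 array, and Group E called 0 to 2 without 1 array. The member in the F-test was CUST_45914 without Group D replicate 3 and CUST_50604 without Group E replicate 1. Those in Group E were CUST_50604, without Group E replicate 1 or Group F replicate 2, and CUST_11494, without Group E replicate 1, at signals mostly not well above background. Groups B, C and F called 0 members in every setting. Over all probes, Group D called 22 with scaling to the 75th percentile, against 69 of 60080 in the main analysis. With the filter it called 147 of the 13072 probes left, a smaller set, so this count is not like the others. Without 1 array Group D called 17 to 81, with 17 without Group D replicate 2 and 33 without replicate 4. The F-test called 8 with that scaling and 7 with variances not moderated, against 18 of 60080, and 46 of the 13072 probes left by the filter. Without 1 array it called 6 to 42, the lowest without Group C replicate 1 and the highest without Group F replicate 1. Scaling to the 75th percentile shifted the median of all probes to -0.25 log2 in the pellet-fed groups less Group A, against 0.01. Over the probes well above background on all arrays of Group A, the median was -0.02 with this scaling, against -0.04.

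The replicate number as a block changed no call of a member, with 2 members called in Group D and 0 in the F-test. Same-numbered arrays of different groups had correlations of their deviations between -0.47 and 0.60, with 40 of 60 above 0.1, and every pair above 0.1 between Groups C and D, E and F, and B and A. In each of these pairs of groups, same-numbered arrays always lie on the same slide. The labels give no pairing, and the part of the slides or of another structure shared by number was not tested. Dim spots limit CUST_11494 and 4 further members to bounds in some pellet-fed groups or on some arrays.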
